A study of Mus musculus with 2 samples.

Results

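The Kruppel-like factors described here are 10 mouse genes, *Klf2*, *Klf3*, *Klf4*, *Klf5*, *Klf6*, *Klf7*, *Klf9*, *Klf10*, *Klf13* and *Klf15*. They were chosen by gene symbol, with no threshold on their values, and are 10 of the 22096 gene symbols in the deposited files. The RNA came from forelimbs of mouse embryos at stage E13.5 (mixed strain background), whose cells were sorted by flow cytometry into ScxGFP-positive and ScxGFP-negative cells. ScxGFP is a green fluorescent reporter under regulatory sequence of *Scx*, the gene of the tendon and ligament progenitor factor scleraxis. Both populations come from forelimbs that carry the reporter, the labels record no other allele or treatment, and forelimbs were pooled (3 pairs, 6 in all) before sorting. The sort gene checked the labels: *Scx* had 134 FPKM in the ScxGFP-positive library against 1.69 in the other. Each population gave 1 library, so no difference below has a replicate check or a test, and every value describes these libraries.

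Kruppel-like factors (KLFs) are transcription factors whose C-terminal C2H2 zinc fingers bind GC-rich DNA and CACCC boxes, and they share that DNA-binding region with the SP family. The family is usually divided by what lies N-terminal of the fingers: KLF3, KLF8 and KLF12 recruit the corepressor CtBP; KLF1, KLF2, KLF4, KLF5, KLF6 and KLF7 act mostly as activators; and KLF9, KLF10, KLF11, KLF13, KLF14 and KLF16 bind the corepressor SIN3A. Several members are characteristic of one lineage, such as KLF1 in erythroid cells, KLF2 in endothelium under flow and KLF5 in basal epithelium, while KLF2 and KLF4 are also known from progenitors of the attachment between tendon and bone.

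Promoter sequences are shown for 3 members, because *Klf3* had the highest level in both libraries, *Klf4* was the only member with a higher level in ScxGFP-positive cells, and *Klf2* is a known target of the ERK5 and MEF2 pathway described below. They are RefSeq windows of build GRCm38.p6 (the files use mm9, and no position was converted), from 250 bases before to 50 bases after the gene start, written 5′ to 3′ on the strand of the gene. In *Klf3* and *Klf4*, capitals mark the CACCC box on either strand (CACCC or GGGTG), and in *Klf2* they mark a match to the MEF2 consensus. The windows lie at chr5:64803271-64803570 (plus strand, *Klf3*), chr4:55532426-55532725 (minus strand, *Klf4*) and chr8:72318812-72319111 (plus strand, *Klf2*).
Klf3: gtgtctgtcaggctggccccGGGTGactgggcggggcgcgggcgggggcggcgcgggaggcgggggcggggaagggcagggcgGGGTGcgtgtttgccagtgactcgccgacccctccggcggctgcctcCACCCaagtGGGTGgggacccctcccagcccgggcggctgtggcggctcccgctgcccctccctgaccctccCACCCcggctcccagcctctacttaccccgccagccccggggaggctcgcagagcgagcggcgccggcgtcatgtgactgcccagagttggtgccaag
Klf4: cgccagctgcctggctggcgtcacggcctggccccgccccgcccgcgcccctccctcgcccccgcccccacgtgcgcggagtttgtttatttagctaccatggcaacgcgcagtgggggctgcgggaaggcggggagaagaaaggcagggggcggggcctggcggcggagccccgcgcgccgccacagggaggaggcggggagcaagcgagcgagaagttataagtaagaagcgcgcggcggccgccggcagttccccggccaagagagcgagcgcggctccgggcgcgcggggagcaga
Klf2: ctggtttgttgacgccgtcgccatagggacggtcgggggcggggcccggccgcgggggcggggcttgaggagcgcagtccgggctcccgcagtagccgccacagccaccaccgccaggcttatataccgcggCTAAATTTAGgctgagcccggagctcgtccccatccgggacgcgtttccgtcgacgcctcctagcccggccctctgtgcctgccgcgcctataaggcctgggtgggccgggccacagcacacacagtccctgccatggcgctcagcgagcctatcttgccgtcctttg

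The *Klf3* window held 5 CACCC boxes and the *Klf4* window 0. The table gave windows for 8 of the 10 members, all but *Klf5* and *Klf10*, and 6 of those 8 held at least 1 CACCC box, where 57.5% of all 32851 windows of that length did. The GC box (GGGCGG on either strand) lay in 7 of the 8, all but *Klf9*, against 35.7% of all windows. It occurred 6 times in *Klf3*, 4 times in *Klf4* and 2 times in *Klf2*, in windows of 76.7%, 74.3% and 69.3% G and C. The 8 windows ran from 58.3% (*Klf7*) to 76.7% (*Klf3*) G and C. That content is not given here for all windows, so the shares with a box are not matched for it. A MEF2 consensus match was found in *Klf2* alone among the 8, with its first base 118 bases before the gene start, and in 0.557% of all windows. These letters describe the windows; no binding was measured here.

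Levels are FPKM as deposited, that is, fragments scaled to the length of the transcript and to sequencing depth, so genes can be set beside each other. *Klf3* was the most abundant of the 10 in both libraries, and *Klf7* came second in both. In ScxGFP-positive cells the order continued with *Klf6*, *Klf4*, *Klf13*, *Klf5*, *Klf10*, *Klf2*, *Klf9* and *Klf15*. In ScxGFP-negative cells it continued with *Klf5*, *Klf6*, *Klf4*, *Klf10*, *Klf13*, *Klf2*, *Klf15* and *Klf9*. The place of *Klf5* differed most between the orders, at place 6 in the positive and place 3 in the negative library. With 1 library each, the spread around neighbouring places in these orders is unknown. Summed over the 10 members, the level was 37.7 FPKM in ScxGFP-positive against 64.5 in ScxGFP-negative cells, the former being 58.4% of the latter. *Klf3* made up 30.5% of the positive and 36.6% of the negative sum. *Klf5* made up 4.44% of the positive and 14.7% of the negative sum, whereas *Klf4* made up 14.0% and 6.91%.

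**Figure D1:**
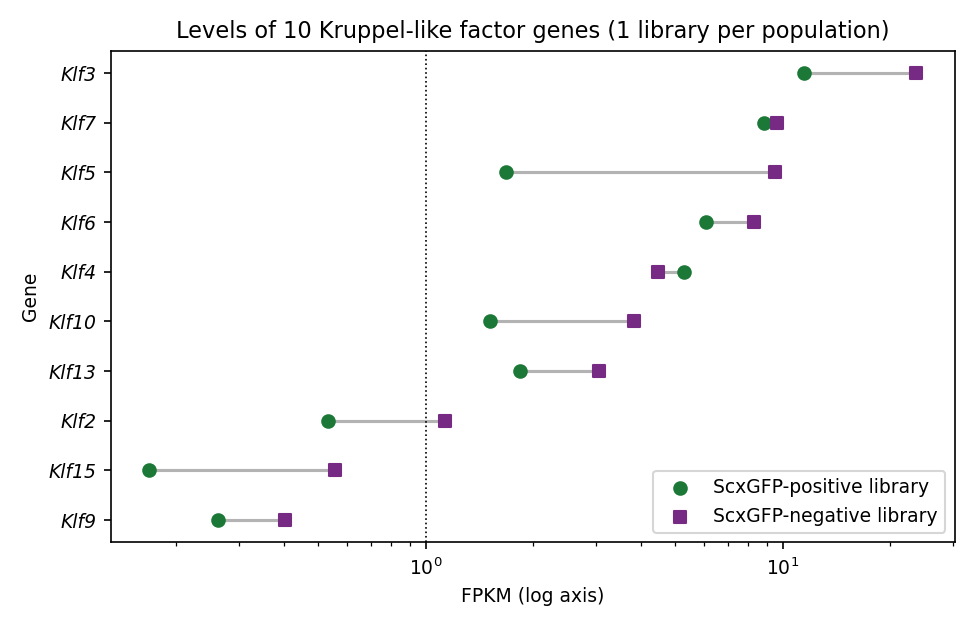
FPKM (log axis) of the 10 members in the ScxGFP-positive library (circles) and the ScxGFP-negative library (squares), ordered by the negative level, with 1 library per population and hence no error bars. The dotted line marks 1 FPKM; *Klf9* and *Klf15* lie under it in both libraries, and *Klf4* is the 1 member whose circle lies to the right of its square.

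Differences were taken as log2((FPKM positive + 1) / (FPKM negative + 1)), which understates the difference of genes at low levels, and a gene counted as measured with at least 1 FPKM in at least 1 library. Of the 10 members 8 were measured, and *Klf2* passed only through its negative level. On this scale 1 member, *Klf5*, was at least 2-fold lower in ScxGFP-positive cells and 0 were at least 2-fold higher. Among all 12096 measured genes, 9.98% were at least 2-fold lower and 4.03% at least 2-fold higher, so the members' counts do not stand apart from the background. The log2 ratio was below 0 for 9 of the 10 members (7 of the 8 measured) and for 73.8% of measured genes. Its median over all 10 members was −0.45, and −0.50 over the 8 measured, beside −0.27 over all measured genes. Against that median of all genes 7 members lay below and *Klf4*, *Klf7* and *Klf9* above. *Klf9* (above) and *Klf15* (below) were under 1 FPKM in both libraries, so no place is read for either. In FPKM without a pseudocount, 5 of the 10 members (4 of the 8 measured: *Klf2*, *Klf3*, *Klf5* and *Klf10*) stood at no more than 50% of their negative level, as did 15.5% of measured genes. Since both libraries come from mixed cells, fewer cells of an expressing type and less RNA per cell cannot be told apart in any of these values.

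Among the members known mostly as activators, *Klf5* showed the widest difference. KLF5 is a factor of proliferating basal epithelium, also known from vascular smooth muscle. The level of *Klf5* was 1.67 FPKM in ScxGFP-positive against 9.49 in ScxGFP-negative cells (NM_009769, mm9 chromosome 14, 99697910 to 99712628), the positive level being 17.7% of the negative. Its log2 ratio was −1.97, or 3.92-fold lower on the FPKM + 1 scale, and 2.98% of measured genes had a lower ratio. The levels rest on about 6598 and 39080 aligned bases. The epidermal keratin gene *Krt5* had 4.67 FPKM against 151, so its positive level was 3.08% of the negative one. *Krt5* had the widest ratio of the epidermal markers listed below, whose median was 4.39%. The part of epidermal cells in the *Klf5* value was not tested.

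*Klf4*, which encodes a factor of epidermal barrier formation and of reprogramming to pluripotency, went the other way. It stood at 5.28 FPKM in ScxGFP-positive and 4.46 in ScxGFP-negative cells (NM_010637, mm9 chromosome 4, 55540009 to 55545347). The positive level was 118% of the negative, the log2 ratio was 0.20, and it lay 0.47 above the median of all genes, with 84.5% of measured genes at a lower ratio. This is well within 2-fold, and it ran from 0.12 to 0.78 over the 9 processing alternatives tried. The sign of *Klf4* stayed the same, but this was no check. A change of pseudocount cannot turn a sign, nor can the highest transcript row for a gene with 1 row. The rescalings and the removal of the length trend raised the ratio of *Klf4*. *Klf2*, its close relative, stood at 0.532 and 1.13 FPKM (NM_008452, mm9 chromosome 8, 74842961 to 74845553), a positive level of 47.0% of the negative. Its log2 ratio of −0.48 rests on about 2206 and 4910 aligned bases, so *Klf2* was near the floor of the measured range in both libraries.

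*Klf6* and *Klf7* were expressed at similar levels in both populations. KLF6 is a widely expressed factor induced by tissue injury, and KLF7 is known from neurons and axon outgrowth. *Klf6* stood at 6.09 FPKM in ScxGFP-positive and 8.32 in ScxGFP-negative cells (NM_011803, mm9 chromosome 13, 5860735 to 5869639), a log2 ratio of −0.40. *Klf7* stood at 8.85 and 9.63 FPKM (NM_033563, mm9 chromosome 1, 64082247 to 64167963), a log2 ratio of −0.11 with 65.6% of measured genes lower. The ratio of *Klf7* turned positive under 6 of the 9 alternatives, as high as 0.44, and that of *Klf6* under 1, at 0.11, so neither has a settled direction. A change of pseudocount cannot turn a sign, nor can the highest transcript row for a gene with 1 row. *Klf7* thus turned under every alternative that could turn it. The deposited *Klf7* model is 1334 bases long, the shortest of the 10, and its FPKM rests on that length.

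*Klf3* is the one member of the CtBP-binding group, a repressor known from erythroid cells, B cells and fat. It stood at 11.5 FPKM in ScxGFP-positive and 23.6 in ScxGFP-negative cells (NM_008453, mm9 chromosome 5, 65194762 to 65221368), on about 60669 and 130629 aligned bases, the deepest pair of values among the members. The positive level was 48.6% of the negative. Its log2 ratio of −0.98 lay just inside the 2-fold limit, and 10.3% of measured genes had a lower ratio.

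The relatives of *Klf3* in that group are *Klf8* and *Klf12*, and *Klf12* differed from it in direction. *Klf12*, which is not among the 10, stood at 10.2 FPKM in ScxGFP-positive and 3.78 in ScxGFP-negative cells (NM_010636, mm9 chromosome 14, 100269862 to 100549015), a log2 ratio of 1.22. *Klf8* stood at 0.621 and 0.541 FPKM, under the limit for a measured gene in both, so no direction is read for it. *Klf3* thus had 2.06 times the FPKM in negative as in positive cells, and *Klf12* 2.69 times the FPKM in positive as in negative cells. Their levels were near each other in ScxGFP-positive cells, 11.5 and 10.2 FPKM, and apart in ScxGFP-negative cells, 23.6 and 3.78.

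Members of the SIN3A-binding group were low in both populations. *Klf10*, first described as a TGF-beta inducible early gene and known from bone and tendon cells, stood at 1.52 FPKM in ScxGFP-positive and 3.84 in ScxGFP-negative cells (NM_013692, mm9 chromosome 15, 38224168 to 38230462). Its positive level was 39.5% of the negative, and its log2 ratio of −0.94 was, with that of *Klf3*, the nearest inside the 2-fold limit. *Klf13*, a regulator of T cell cytokine genes and of heart development, stood at 1.83 and 3.05 FPKM (NM_021366, mm9 chromosome 7, 71031237 to 71083801), a log2 ratio of −0.52. *Klf9*, a gene induced by glucocorticoid and thyroid hormone, stood at 0.262 and 0.403 FPKM (NM_010638, mm9 chromosome 19, 23215716 to 23241401). The *Klf9* locus overlaps that of the microRNA gene *Mir1192* in the files. *Klf15*, a regulator of amino acid and lipid metabolism in muscle, heart and liver that is outside these groups, stood at 0.168 and 0.556 FPKM (NM_023184, mm9 chromosome 6, 90412620 to 90425203). Both *Klf9* and *Klf15* are under 1 FPKM throughout; the positive value of *Klf15* rests on about 880 aligned bases, and no direction is read from either.

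The rest of the family, 7 KLF and 9 SP genes fixed as a list, reached further in both directions than the 10 members on the FPKM + 1 scale. On the lower side this rested on *Sp9* alone, at a log2 ratio of −2.36 beside −1.97 for *Klf5*. Of these 16 genes 12 were measured, 2 were at least 2-fold higher and 4 at least 2-fold lower, where 4.03% and 9.98% of all measured genes were, and the median log2 ratio was −0.34. The higher ones were *Klf12* and *Klf14*. *Klf14*, a gene of metabolic regulation in fat, stood at 2.66 FPKM in ScxGFP-positive and 0.178 in ScxGFP-negative cells (NM_001135093, mm9 chromosome 6, 30906021 to 30908990), a log2 ratio of 1.64, with the negative value on about 1264 aligned bases. The lower ones were *Sp9*, *Sp6*, *Klf1* and *Sp7*. *Sp9* and *Sp6*, factors of limb ectoderm, stood at 0.318 against 5.74 and 0.114 against 2.38 FPKM. *Klf1*, the erythroid KLF, stood at 0.172 against 2.21 FPKM and *Sp7*, the osteoblast factor osterix, at 0.493 against 2.05. *Klf14* counted as measured only through its positive level, and *Sp9*, *Sp6*, *Klf1* and *Sp7* only through their negative levels. Of the genes past 2-fold, *Klf12* alone had at least 1 FPKM in both libraries, so these counts lean on the filter. *Sp7*, at a log2 ratio of −1.03, was within 2-fold with the median ratio set to 1 (−0.86), with equal upper quartiles (−0.88) and with the length trend removed (−0.74). With a pseudocount of 5, *Sp9* alone of the 6 genes was past 2-fold, at −1.01, and *Klf5* then lay lower, at −1.12. The widely expressed *Sp1* and *Sp3* stood at 11.1 against 11.7 and 9.06 against 11.3 FPKM, both within 2-fold. *Sp2* and *Sp4* had log2 ratios of −0.31 and −0.26, *Klf11* and *Klf16* of −0.40 and −0.37. *Sp8* and *Klf17* were under 1 FPKM in both libraries, and *Sp5* had 0.531 FPKM in positive cells and was listed at 0 in negative cells. Summed over all 17 KLF symbols, the level was 53.4 FPKM in positive and 74.6 in negative cells, or 71.6%, where the 10 members alone gave 58.4%. *Klf12* took 19.0% of the positive sum, second to *Klf3* at 21.5%, and 5.06% of the negative sum.

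**Figure D2:**
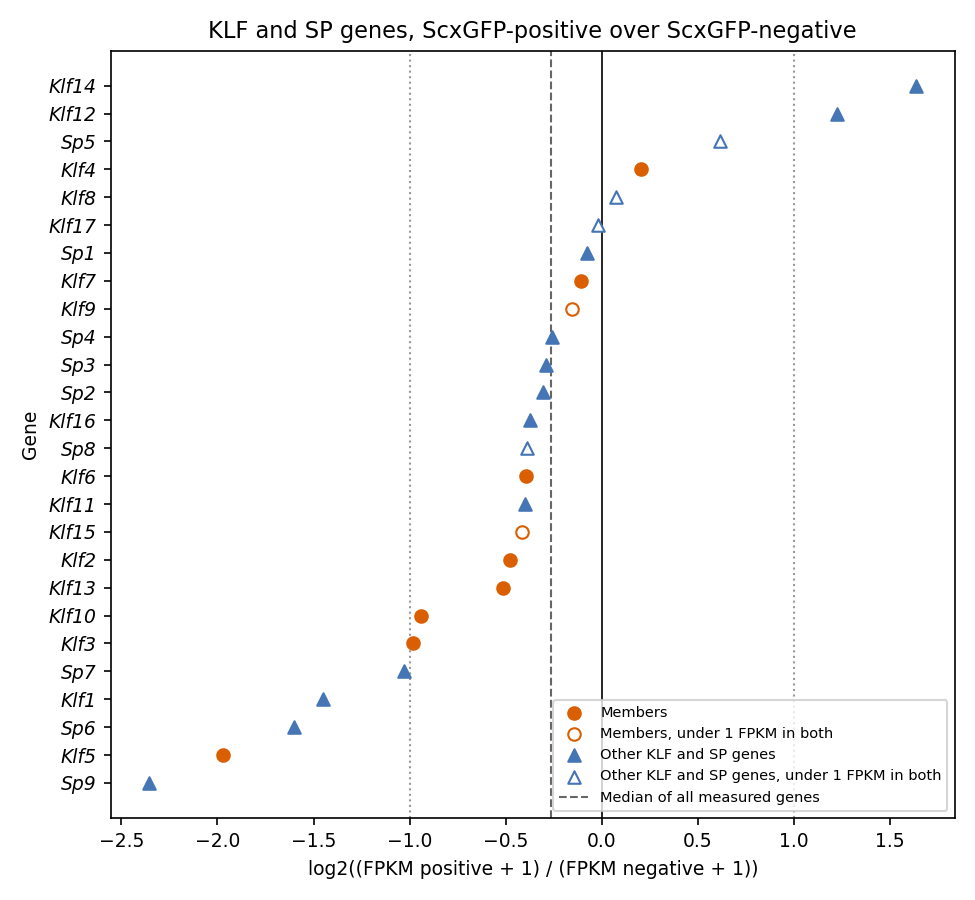
Log2 ratio (FPKM + 1 scale) of the 10 members (circles) and the other 16 KLF and SP genes (triangles), 1 library per population; open symbols are genes under 1 FPKM in both libraries, dotted lines mark 2-fold and the dashed line the median of all measured genes (−0.27). *Klf5* is the 1 circle beyond 2-fold, at −1.97, while *Klf12* and *Klf14* lie beyond it on the higher side.

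Genes whose products act with KLF proteins lay within 2-fold on the FPKM + 1 scale. In a list of 16 corepressors, coactivators and ubiquitin ligases, all were measured, and 0 were at least 2-fold higher or lower (1 lower with a pseudocount of 0.1 or with the highest transcript row); the median log2 ratio was −0.24, positive under 4 of the 9 alternatives (up to 0.26). The widest differences were those of *Ctbp2*, a CtBP corepressor (3.85 FPKM in positive and 8.27 in negative cells, or 46.6%), and *Hdac1*, a histone deacetylase (22.1 and 36.5). *Ctbp1* stood at 6.81 and 9.41 FPKM and *Sin3a*, the scaffold of the SIN3 corepressor, at 9.99 and 13.7.

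Pathways known to induce KLF genes were read from 3 lists. Among all measured genes 9.98% were at least 2-fold lower and 4.03% at least 2-fold higher. A count of 0 or 1 in such short lists is therefore not read as a result about the pathway. In the ERK5 and MEF2 list, which acts on *Klf2* and *Klf4*, 1 of 6 measured genes was at least 2-fold lower and 0 were higher. The median log2 ratio was −0.17, and under 6 of the 9 alternatives it was positive, from 0.056 to 0.33. The 1 gene was *Mef2c*, a MEF2 factor of muscle and endothelium, at 4.30 against 14.5 FPKM; *Mapk7*, the gene of ERK5, stood at 7.49 against 6.67. In the list of steroid and thyroid hormone receptors, 3 of 5 genes were measured and 0 passed 2-fold (1 higher, *Nr3c2*, with a pseudocount of 0.1 or TPM): *Nr3c1*, the glucocorticoid receptor, stood at 2.79 against 3.82 FPKM, *Nr3c2*, the mineralocorticoid receptor, at 1.23 against 0.311, and *Thra*, a thyroid hormone receptor, at 8.50 against 7.48. In the TGF-beta list 1 of 8 measured genes was at least 2-fold higher and 1 lower, with a median of −0.021 that was positive under 6 of the 9 alternatives (0.16 to 0.53). The higher count was 2 with the median ratio set to 1, equal upper quartiles or TPM, 3 with TPM without short transcripts and 0 with a pseudocount of 5. The higher one as reported was the ligand gene *Tgfb3* (9.68 against 2.74 FPKM) and the lower one *Tgfb1* (0.370 against 9.81), while the receptor gene *Tgfbr2* stood at 11.8 against 6.42. *Tgfb1* counted as measured only through its negative level.

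Genes reported elsewhere as KLF targets had a median below that of all genes. Of 14 listed, 12 were measured, 4 were at least 2-fold lower and 0 higher, beside 9.98% and 4.03% of all measured genes. The lower count was 0 with a pseudocount of 5 and 2 with the length trend removed. Their median log2 ratio was −0.65, beside −0.27 for all genes. The 4 were *Eng*, an endothelial TGF-beta coreceptor (0.977 against 5.38 FPKM), the adhesion receptor gene *Cd44* (2.85 against 9.28), *Lgals3*, the galectin 3 gene (0.250 against 2.21), and *S1pr1*, a sphingosine phosphate receptor of endothelium and lymphocytes (1.64 against 4.89). *Eng* and *Lgals3* counted as measured only through their negative levels, so the count leans on the filter. *Ccnd1*, the cyclin D1 gene, and *Cdkn1a*, the gene of a cell cycle inhibitor, stood at 29.7 against 34.4 and 3.99 against 5.55 FPKM. The list was not divided into genes that KLFs induce and genes that they repress, so no KLF activity is read from it.

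Several KLF genes are known to be induced rapidly on cell dissociation, together with immediate early genes such as *Fos*. In a list of 21 such genes 15 were measured, 8 were at least 2-fold lower in ScxGFP-positive cells and 0 higher, where 9.98% of all measured genes were lower by as much. That count depended on the processing, and 7 of the 8 genes lay between −1.22 and −1.04. It was 1 with the median ratio of measured genes set to 1, with equal upper quartiles or with a pseudocount of 5, 2 with the length trend removed, 3 with TPM without short transcripts and 10 with a pseudocount of 0.1. The median log2 ratio was −1.04 and ranged from −1.11 to −0.48 over the alternatives. *Zfp36*, which encodes an mRNA decay factor, stood at 3.36 against 16.1 FPKM, *Fos* at 1.78 against 5.41, *Fosl2* at 1.38 against 4.46 and the phosphatase gene *Dusp1* at 3.80 against 10.1. *Jun* stood at 8.16 against 8.81 and *Cyr61* at 8.30 against 5.36, so the list did not move as one. In a list of 9 glucocorticoid-responsive genes 8 were measured, 3 were at least 2-fold lower (*Dusp1* and the metallothionein genes *Mt1* and *Mt2*) and 0 higher. Among all measured genes 9.98% were lower and 4.03% higher by as much. *Fkbp5*, *Per1*, *Tsc22d3* and *Sgk1*, further genes of that list, all lay within 2-fold.

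Markers of endothelium, epidermis, blood, nerve, muscle and tendon had medians farther from equal levels than the KLF genes did, and cartilage markers had one nearer. The counts below stand beside 9.98% of all measured genes at least 2-fold lower and 4.03% at least 2-fold higher. Of 10 endothelial markers 9 were at least 2-fold lower in ScxGFP-positive cells, the 10 levels summing to 3.74 FPKM against 61.3. *Cldn5* was listed at 0 in the positive library. These 9 lower genes were under 1 FPKM in that library and counted as measured only through their negative levels. Of 8 measured epidermal markers 7 were lower, the 9 listed genes summing to 12.3 and 321 FPKM. All 8 leukocyte markers were lower (10.9 and 403 FPKM), as were 8 of 9 erythroid markers (156 and 6430 FPKM). The erythroid list includes *Klf1*, and *Gata1* of that list was listed at 0 in the positive library. Of 8 Schwann cell and nerve markers 6 were lower (16.4 and 53.2 FPKM). Of 8 measured muscle markers 7 were at least 2-fold higher in the positive library (152 and 19.9 FPKM over 9), as were 8 of 10 tendon markers (829 and 133). The tendon list includes the sort gene *Scx*, whose direction was set by the sort, and *Egr1*, which is also on the immediate early list. Of 8 measured cartilage markers 1 was higher and 0 lower. Part of the lower epidermal, blood and nerve markers also counted as measured only through their negative levels. Part of the higher muscle and tendon markers did so only through their positive levels, so these counts lean on the filter. With a pseudocount of 5 the counts past 2-fold were 5 endothelial, 2 Schwann cell and nerve and 2 muscle markers. The part of these cell types in the KLF values was not tested.

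Set on the same footing, the positive level as a percentage of the negative had a median of 4.41% over the endothelial markers, 4.39% over the epidermal, 2.44% over the leukocyte, 2.23% over the erythroid and 14.5% over the Schwann cell and nerve markers. It was 89.2% over the cartilage markers, 591% over the muscle markers and 816% over the tendon markers, which include the sort gene *Scx*. Among the 10 KLF members it ran from 17.7% (*Klf5*) to 118% (*Klf4*) with a median of 54.3%, and over the immediate early genes the median was 42.0%. *Klf1* stood at 7.79%, *Sp6* at 4.77% and *Sp9* at 5.54%. These 3 lay nearer the erythroid, epidermal, endothelial and leukocyte medians than any of the 10 members did, so no single cell type is read from them. *Klf1* is itself on the erythroid list, so it was set beside a median that it helped to form.

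**Figure D3:**
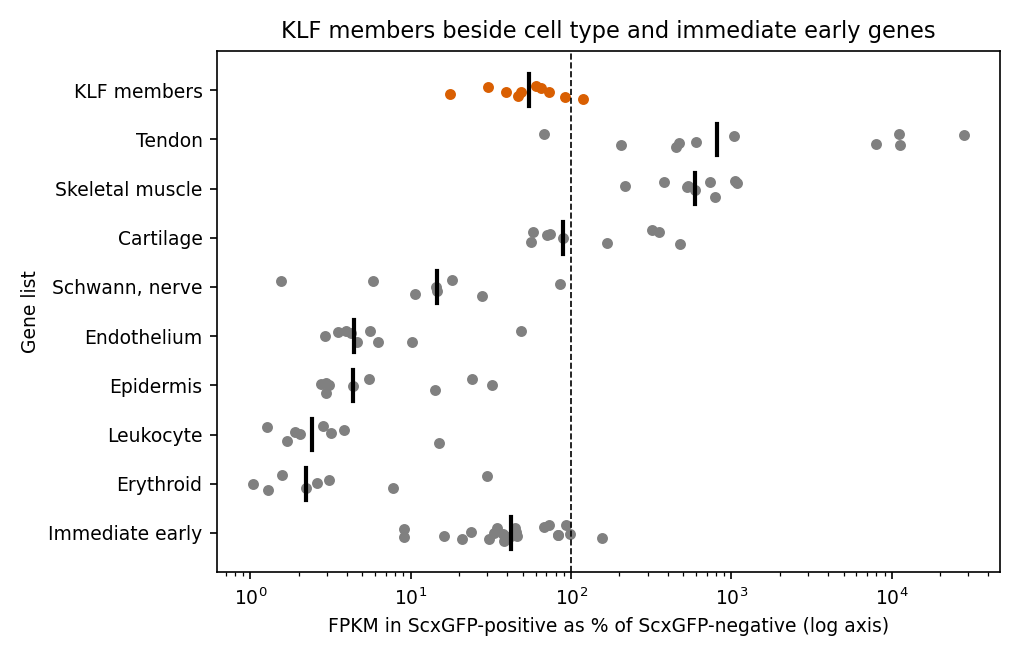
FPKM in the ScxGFP-positive library as a percentage of that in the ScxGFP-negative library (log axis), 1 point per gene, with the median of each list as a black bar and equal levels at the dashed line. The 10 members lie between 17.7% and 118%, above most endothelial, epidermal and blood markers and below all muscle markers and 9 of 10 tendon markers (the tenth, *Egr1*, lies at 68.1%); *Cldn5* and *Gata1*, at 0 in the positive library, are not drawn.

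The genes whose values were nearest to those of the highest and the lowest member were sought among 10791 measured genes, by Euclidean distance in the plane of the 2 log2(FPKM + 1) values. Nearest to *Klf4* were *Ocrl*, *Maoa* and *Ift172*, at distances of 0.027, 0.034 and 0.039. Nearest to *Klf5* were *Elf1* (1.66 FPKM in positive and 9.13 in negative cells), *Mgst3* (1.68 and 8.93) and *Cotl1* (1.67 and 10.1), at 0.050, 0.079 and 0.084. A likeness over 2 libraries says only that the 2 levels were close.

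The ratios of the members shifted with the scaling and the pseudocount. *Klf5* was at least 2-fold lower under all 9 alternatives, between −2.43 and −1.12. *Klf3* lay between −1.04 and −0.47 and *Klf10* between −1.28 and −0.44, each past 2-fold with a pseudocount of 0.1, as was *Klf15* at −1.29. With that pseudocount 3 of the 8 measured members (4 of all 10) were at least 2-fold lower and 0 higher, beside 14.7% and 5.89% of measured genes.

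**Figure D4:**
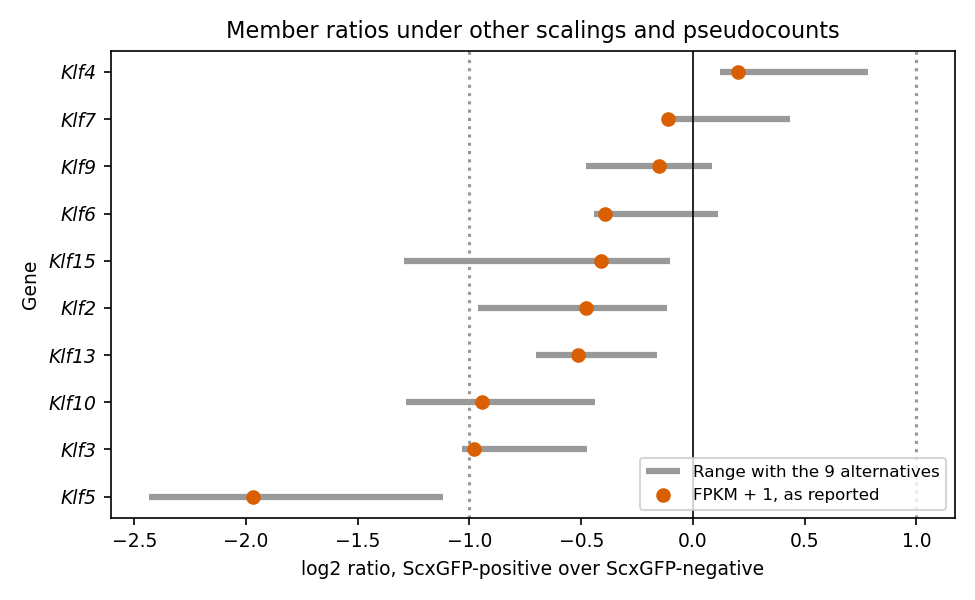
Log2 ratio of each member as reported (point) and its range over that value and the 9 processing alternatives (bar); dotted lines mark 2-fold. *Klf5* stays below −1 throughout, *Klf4* stays above 0, and the bars of *Klf7*, *Klf9* and *Klf6* cross 0.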

How the data were processed

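Both libraries were made by the submitters from total RNA of sorted cells (RNeasy micro kit, NuGEN Ovation RNA-Seq v2, per the labels' protocols; that chemistry does not mark strand). The submitters' processing notes name Bowtie 0.12.7, TopHat 1.4.1 and build mm9. The deposited tables carry the name Cufflinks and its layout, and its version is not given in those notes. The authors' deposited FPKM is given, per the file headers, for each RefSeq transcript with its length and its coverage signal, the estimated depth of aligned bases. Each file held 28107 rows under 22096 symbols. Rows with status FAIL (5 and 6) made a gene missing; all 10 members had 1 row each with status OK in both. Deposited coverage times length gave aligned bases, 0.687 and 0.875 gigabases in all in the positive and negative library. Read counts could not be recovered, so no count test was run, and the counting error of a value is unknown. File positions start from 0, so 1 was added.

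FPKM was summed per symbol in Python 3.11.15 with pandas 2.3.3. Log2 ratios used a pseudocount of 1, measured genes had at least 1 FPKM in 1 library, and the code was tested on simulated data. The members, 16 gene lists and alternatives were chosen with earlier results of these data known. Named were all members, the other KLF and SP genes, up to 4 measured genes per list with the largest absolute ratio, *Scx*, and the 3 nearest genes to the highest and lowest member; *Jun*, *Cyr61*, *Ccnd1*, *Cdkn1a*, *Fkbp5*, *Per1*, *Tsc22d3*, *Sgk1*, *Egr1*, *Cldn5* and *Gata1* were named after their values were seen. *Spi1* was not analysed here. Protein sequences were not used here.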

Additional observations from a re-analysis of the deposited data

How the results depend on the processing

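The count of members at least 2-fold lower was 1 as reported and under 8 of the 9 alternatives, and 4 with a pseudocount of 0.1; the count at least 2-fold higher was 0 throughout. The median log2 ratio of the 10 members was −0.45 as reported. It was −0.83 with a pseudocount of 0.1, −0.19 with 5, −0.30 with the median ratio of measured genes set to 1, −0.33 with equal upper quartiles, −0.39 with FPKM rescaled to equal sums (TPM), −0.46 with TPM without haemoglobin genes, −0.30 with TPM without transcripts under 200 bases and −0.17 after removal of the trend over 10 length bins. TPM values are larger than FPKM here, so a pseudocount of 1 weighs less on them. For the other KLF and SP genes the median of −0.34 became −0.48, −0.17, −0.11, −0.14, −0.058, −0.13, 0.051 and −0.098 in the same order, and −0.37 with the highest transcript row in place of the sum, so its sign turned under 1 alternative. With a pseudocount of 5 their counts were 0 higher and 1 lower, in place of 2 and 4. With a minimum of 5 FPKM in 1 library 5 of the 10 members passed, in place of 8. Over all genes, 488 were higher and 1207 lower; that minimum gave 323 and 658, a pseudocount of 5 gave 222 and 394, removal of the length trend gave 709 and 781, TPM gave 1133 and 1164, TPM without haemoglobin genes 1032 and 1236, TPM without short transcripts 1310 and 1070, the median ratio set to 1 684 and 879, and equal upper quartiles 654 and 914. The median of all genes was −0.27 as reported, −0.00061 when the median ratio was set to 1, and 0.10 with TPM. Where no value shows it, the cause was not tested. No paired analysis was possible because each group has 1 library. Without replicates no spread is known, and levels of *Klf2*, *Klf9* and *Klf15*, on at most 4910 aligned bases per library, are the least certain.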
